A study of Mus musculus with 12 samples.

Results

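Epithelial-mesenchymal transition (EMT) is the loss of epithelial adhesion and the gain of a mesenchymal program. Epithelial cells are held together by E-cadherin and carry the surface glycoprotein EpCAM, whereas mesenchymal cells make N-cadherin, the intermediate filament vimentin and the matrix glycoprotein fibronectin. Transcription factors of the Snail, Zeb and Twist families repress E-cadherin by binding E-boxes in its regulatory DNA, and Snai2 (Slug) is also known as a factor of basal epithelial cells in glandular tissues. The 10 genes described here are Fn1, Vim, Cdh1, Cdh2, Epcam, Zeb1, Zeb2, Snai1, Snai2 and Twist1. They were taken by gene name from a table of 24674 genes, where each had 1 row, and the set was chosen from earlier results of these data. Differences of the 10 genes from vehicle are therefore given as a description with no test.

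The table held RNA-seq of 12 cultures of mouse prostate organoids in 4 groups of 3. All were wild-type C57BL/6 organoids grown from basal cells, which per the methods were sorted as EpCAM-positive, CD49f-high cells and embedded in Matrigel, a basement membrane extract. The groups received vehicle, UK5099 (an inhibitor of the mitochondrial pyruvate carrier), butyrate (a histone deacetylase inhibitor) or UK5099 plus butyrate, called the combination below. Doses and durations for these libraries were not given in the labels. Nothing stated that the 3 samples of a group came from separate animals, so their spread may be technical.

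Values were deposited as transcripts per 1000000 (TPM), here divided by the genomic span of each gene and not by its exons. Levels are therefore compared between genes only as fragments per kb of exon per 1000000 sequenced fragments (FPKM). Within a gene, FPM stands for fragments per 1000000 sequenced fragments. The steps between low TPM values gave the number of sequenced fragments behind each value, from 33251843 to 43498951 per sample. Basal keratins and Trp63 summed to 6130 to 6200 FPM in vehicle and 8660 to 13900 in the treated groups, and the luminal markers Krt8, Krt18 and Prom1 to 2590 to 2650 and 598 to 1240, so epithelial markers were present in every group. The typical gene had a lower TPM in the treated groups. Over the 13345 genes that averaged 1 TPM or more, the middle coefficient on log2(TPM + 1) was -0.12 under UK5099, -0.30 under butyrate and -0.41 under the combination, and it was 0.00, -0.03 and -0.03 after division by median-of-ratios size factors. The share of higher genes among all calls against vehicle moved with that scaling from 50.4% to 64.0% under UK5099, from 31.8% to 58.2% under butyrate and from 27.9% to 63.8% under the combination.

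In vehicle the epithelial members stood far above the mesenchymal ones per exon length, and Epcam was highest with 717 ± 10.7 FPKM (mean ± SD, n = 3 in every group). Cdh1 followed with 487 ± 6.31, Fn1 with 78.8 ± 2.26, Snai2 with 25.1 ± 1.02 and Vim with 2.90 ± 0.107. None of these 5 neighbors overlapped in vehicle. The other 5 members lay between 0.00956 and 0.0517 FPKM, and Snai1, Twist1, Zeb1 and Cdh2 could not be ordered because their samples overlapped. Snai2 was thus the only EMT transcription factor among the members with more than 21 fragments in any sample.

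**Figure D1:**
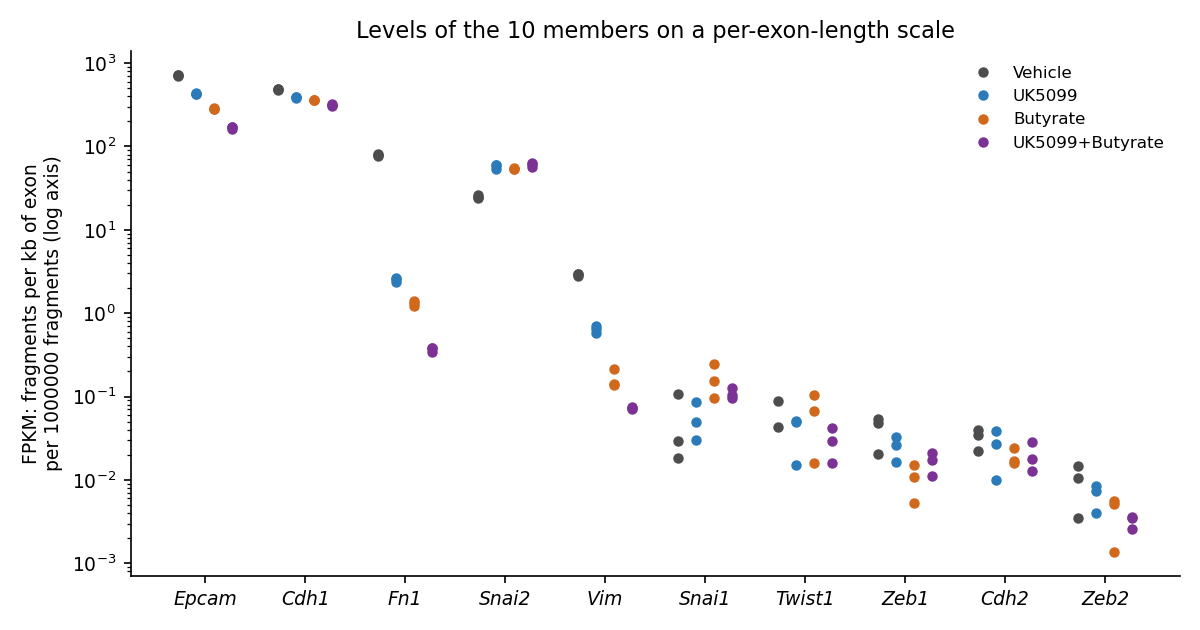
Level of each of the 10 members in FPKM on a log axis, with 1 point per sample and colors for the 4 groups (n = 3). A vehicle sample of Twist1 with 0 fragments is not drawn. Epcam and Cdh1 lie at the top in every group, and Fn1 drops from 78.8 in vehicle to 0.370 under the combination.

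To show an epithelial and a mesenchymal member that were both lower in the treated groups, the 250 bases before the transcription starts of Epcam and Vim are printed here, from RefSeq on GRCm38.p6. Capitals mark the E-box CACCTG, which reads CAGGTG on the other strand and is the known core sequence bound by Snail and Zeb factors. The Epcam stretch is chr17:87635729-87635978 on the plus strand and the Vim stretch is chr2:13574061-13574310 on the plus strand.
Epcam: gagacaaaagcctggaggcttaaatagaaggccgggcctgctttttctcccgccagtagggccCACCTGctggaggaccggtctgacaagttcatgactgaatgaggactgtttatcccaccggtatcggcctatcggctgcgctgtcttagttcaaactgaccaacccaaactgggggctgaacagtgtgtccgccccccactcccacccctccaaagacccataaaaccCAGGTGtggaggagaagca
Vim: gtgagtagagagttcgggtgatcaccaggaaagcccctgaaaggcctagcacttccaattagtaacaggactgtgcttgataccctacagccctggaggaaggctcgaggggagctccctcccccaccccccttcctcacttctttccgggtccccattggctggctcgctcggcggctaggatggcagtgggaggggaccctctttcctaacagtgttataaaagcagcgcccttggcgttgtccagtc

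The Epcam stretch held 2 such E-boxes, beginning 187 and 19 bases before the start. The Vim stretch held none. Among 32851 promoter windows of 250 bases, 17.2% held at least 1 of these E-boxes on either strand and 2.06% held 2 or more. Windows of 5 of the 10 members were searched, and those on chromosome 18, where Cdh2 and Zeb1 lie, were left out. No window was available for Cdh1, Fn1 and Snai2, so their promoters were not examined. Snai1 held 1 box, 126 bases before its start, while the windows of Zeb2 and Twist1 held none. A match of letters is a description of the sequence, and no binding was measured.

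Fibronectin differed most from vehicle of the 10 genes, and it was lower in every treated group. Fn1 (ENSMUSG00000026193, chromosome 1, 71624679 to 71692359 on the minus strand as listed in the table) encodes the glycoprotein that cells assemble into fibrils through integrins. Its TPM was 72.1, 68.2 and 70.2 in the 3 vehicle samples and 1.98, 2.24 and 2.21 under UK5099. Under butyrate it was 0.951, 0.858 and 1.00, and under the combination 0.234, 0.257 and 0.265. Every sample of a group lay below every sample of the group before it, so that the order was vehicle, UK5099, butyrate and combination with no overlap.

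In fragments, which do not depend on the length used, Fn1 had 32301, 29617 and 39664 in vehicle, 995, 1160 and 1238 under UK5099, 600, 500 and 595 under butyrate and 175, 173 and 188 under the combination. In FPM, the mean in vehicle was 31.0 times that under UK5099, 60.1 times that under butyrate and 213 times that under the combination. The limma coefficients on log2(TPM + 1) were -4.50 under UK5099, -5.20 under butyrate and -5.83 under the combination (standard error 0.04 each). The added 1 compresses values near 0, and the same model on recovered fragments (voom) gave -4.95, -5.91 and -7.74. The combination lay below UK5099 by -1.33 and below butyrate by -0.63 on the log2(TPM + 1) scale, and by -2.78 and -1.82 with voom.

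Vimentin had the same order of groups at a lower level. Vim (ENSMUSG00000026728, chromosome 2, 13578738 to 13587637, plus strand) encodes the main intermediate filament of mesenchymal cells. It had 483, 468 and 561 fragments in vehicle, 109, 124 and 112 under UK5099, 26, 36 and 24 under butyrate and 15, 13 and 15 under the combination. The groups did not overlap, and even the combination left more than the 3 fragments that a count of 0 allows.

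The mean TPM of Vim was 7.98 ± 0.370 in vehicle, 1.66 ± 0.149 under UK5099, 0.364 ± 0.0919 under butyrate and 0.154 ± 0.00701 under the combination. The coefficients on log2(TPM + 1) were -1.75, -2.72 and -2.96 (standard error 0.05 each), and those of voom were -2.18, -4.15 and -5.26. The drugs alone left different shares of the vehicle level of the 2 genes. UK5099 left 3.06% of the vehicle TPM of Fn1 and 20.9% of that of Vim, while butyrate left 1.34% and 4.56%.

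**Figure D2:**
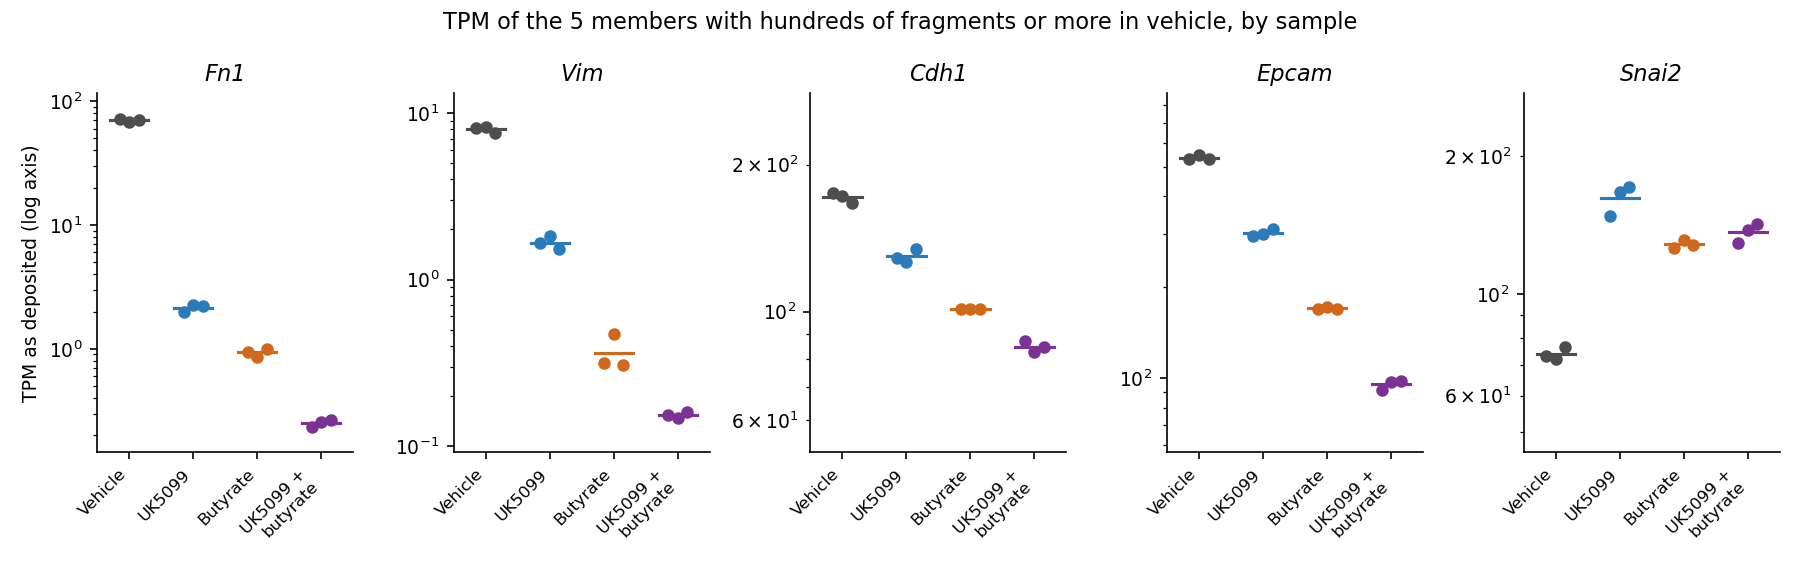
Deposited TPM on a log axis for Fn1, Vim, Cdh1, Epcam and Snai2, each panel with its own scale; points are samples and bars are group means (n = 3). The first 4 genes descend from vehicle to UK5099, butyrate and the combination with no overlap, while all 9 treated samples of Snai2 lie above all 3 vehicle samples.

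Markers of other cell types were measured beside these differences. The 8 fibroblast markers (Col1a1, Col1a2, Col3a1, Dcn, Lum, Pdgfra, Pdgfrb and Thy1, 8 of 8 in the table) summed to 12.9 to 13.9 FPM in vehicle, 16.6 to 18.8 under UK5099, 95.2 to 97.7 under butyrate and 19.1 to 22.3 under the combination. The summed level was not lower in any treated group, but single markers went in both directions. The higher sum under butyrate came from Dcn (decorin), whose mean TPM was 0.762 in vehicle and 9.51 under butyrate. Dcn was also higher under UK5099 (1.22) and the combination (1.41). In vehicle, UK5099, butyrate and the combination, Col1a1 had means of 1.01, 0.943, 0.713 and 0.615 TPM. In the same order Thy1 had 0.312, 0.332, 0.189 and 0.153 and Col3a1 had 0.115, 0.146, 0.0486 and 0.0681. Pdgfra had 0.129, 0.124, 0.175 and 0.171.

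The 3 smooth muscle markers found of 4 (Acta2, Myh11 and Cnn1) summed to 0.564 to 0.844 FPM in vehicle, 0.561 to 0.754 under UK5099, 0.274 to 0.362 under butyrate and 0.264 to 0.385 under the combination. Their sums in both groups given butyrate lay below those in vehicle without overlap, while those under UK5099 overlapped vehicle. Myh11 had 4 to 10 fragments per sample in vehicle, 5 to 8 under butyrate and 3 to 6 under the combination. In the same groups Cnn1 had 2 to 7, 2 to 5 and 3 to 5, so both markers overlapped vehicle in fragments. Acta2 (smooth muscle actin) had 44 fragments over the 3 vehicle samples, 52 under UK5099, 3 under butyrate and 13 under the combination, and voom called it lower under butyrate (-3.58) and under the combination (-1.85) while limma on log2(TPM + 1) did not (-0.18 and -0.15). The 4 endothelial markers found of 5 (Pecam1, Cdh5, Kdr and Tek) summed to 0.966 FPM or less in every sample. The 4 leukocyte markers found of 5 summed to 9.08 to 9.41 in vehicle and to between 12.1 and 48.0 in treated samples. That sum was nearly all Cd68, a lysosomal protein, while Ptprc (CD45) had at most 4 fragments and was at 0 in 5 of 12 samples. The part of any of these cells in the levels of Fn1 and Vim was not tested, and in bulk organoids fewer cells of a type and less RNA per cell cannot be told apart.

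Both epithelial members were also lower in the treated groups, in the same order as Fn1 and Vim. Epcam (ENSMUSG00000045394, chromosome 17, 87943407 to 87958557, plus strand) encodes the adhesion glycoprotein by which the starting basal cells had been sorted. Its TPM was 531, 546 and 532 in vehicle, 296, 301 and 311 under UK5099, 170, 172 and 170 under butyrate and 91.2, 97.0 and 98.0 under the combination. The groups did not overlap, and each drug alone lay between vehicle and the combination.

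The coefficients of Epcam against vehicle were -0.82, -1.65 and -2.48 (standard error 0.03 each) on log2(TPM + 1), and -0.74, -1.34 and -2.11 with voom. The interaction coefficient, the part of the combination that the sum of the single effects leaves over, was -0.01 ± 0.04. On this log scale the effects of the drugs on Epcam were therefore close to additive.

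E-cadherin was lower in the treated groups by less than Fn1, Vim and Epcam. Cdh1 (ENSMUSG00000000303, chromosome 8, 107329983 to 107396878, plus strand) encodes the adherens junction cadherin of epithelia. Its mean TPM was 172 ± 3.87 in vehicle, 130 ± 4.11 under UK5099, 101 ± 0.151 under butyrate and 84.9 ± 2.33 under the combination, again with no overlap between groups. The coefficients were -0.40, -0.75 and -1.01 (standard error 0.03 each) on the deposited scale. They were -0.25, -0.44 and -0.55 after median-of-ratios scaling and -0.32, -0.44 and -0.63 with voom, and only the deposited coefficient of the combination was beyond 1. Even under the combination Cdh1 kept 314 ± 8.12 FPKM, the highest level of any member in that group.

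N-cadherin was close to the detection limit in every group. Cdh2 (ENSMUSG00000024304, chromosome 18, 16721934 to 16942303, minus strand), the cadherin of mesenchymal and neural cells, had 11, 6 and 12 fragments in vehicle, 11, 3 and 9 under UK5099, 5, 7 and 5 under butyrate and 10, 4 and 6 under the combination. Each treated group overlapped vehicle in fragments and in FPM, while in TPM the butyrate and combination samples lay below all vehicle samples. At this depth no switch from Cdh1 to Cdh2 was detectable in any group.

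Snai2 was the only member that was higher in all 3 treated groups without overlap. Snai2 (ENSMUSG00000022676, chromosome 16, 14523716 to 14527249, plus strand) encodes Slug, a zinc-finger repressor. Its TPM was 73.1, 72.3 and 76.5 in vehicle, 148, 167 and 171 under UK5099, 126, 131 and 128 under butyrate and 129, 138 and 142 under the combination. Every treated sample exceeded every vehicle sample, and the butyrate and combination samples overlapped. In FPM, UK5099 samples ran from 109 to 122, butyrate samples from 108 to 113 and combination samples from 116 to 126, so that there UK5099 overlapped both other treated groups.

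The coefficients of Snai2 were 1.12 under UK5099, 0.79 under butyrate and 0.87 under the combination (standard error 0.06 each). They were 1.21, 1.11 and 1.26 with voom, where the mean FPM were 50.7 ± 2.06 in vehicle, 117 ± 7.51 under UK5099, 109 ± 2.69 under butyrate and 122 ± 5.71 under the combination. The effects did not add up: the interaction was -1.03 ± 0.08 on the deposited scale and -1.05 with voom, so that the combination was about as high as either drug alone. The sum of the basal markers was also higher in every treated group. It was 6130 to 6200 FPM in vehicle, 13900 under UK5099, 8660 to 8910 under butyrate and 13000 to 13500 under the combination. The treated groups did not overlap in this sum, while in FPM of Snai2 UK5099 overlapped both others. Single markers differed. Krt5 and Trp63 had a higher mean TPM in every treated group. In vehicle, UK5099, butyrate and the combination, Krt15 had means of 3030, 3600, 2430 and 1930 TPM. In the same order Krt14 had 1680, 5050, 1390 and 3640. The part of the basal markers in the level of Snai2 was not tested.

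**Figure D3:**
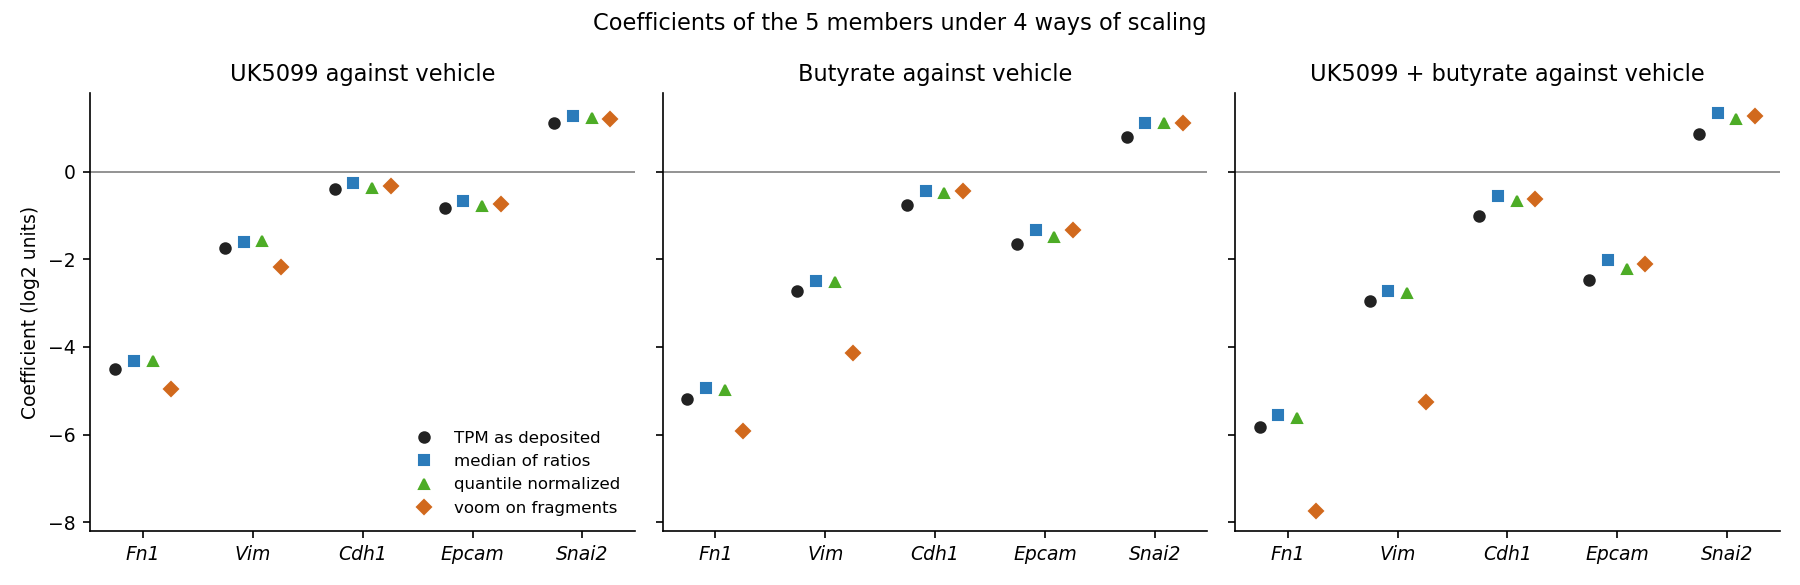
Coefficient against vehicle in log2 units for the 5 well-measured members, under the deposited TPM, median-of-ratios scaling, quantile normalization and voom on recovered fragments. Cdh1, Epcam, Fn1 and Vim lie below 0 and Snai2 above 0 under all 4, and Fn1 and Vim are lowest with voom, which adds no pseudocount of 1 TPM.

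The remaining EMT transcription factors were near the detection limit. Zeb1 (ENSMUSG00000024238, chromosome 18, 5591860 to 5775467, plus strand), a zinc-finger homeobox repressor of Cdh1, had 19, 7 and 21 fragments in vehicle, 12, 10 and 7 under UK5099, 6, 4 and 2 under butyrate and 5, 7 and 9 under the combination. Its relative Zeb2 (ENSMUSG00000026872, chromosome 2, 44873644 to 45007407, minus strand) had 10, 7 and 3 in vehicle, 6, 3 and 6 under UK5099, 4, 4 and 1 under butyrate and 3, 2 and 3 under the combination. The 3 butyrate samples of Zeb1 lay below all 3 vehicle samples (voom coefficient -1.84 ± 0.52), while the other groups of Zeb1 and all groups of Zeb2 overlapped or met vehicle in fragments.

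Snai1 (ENSMUSG00000042821, chromosome 2, 167380115 to 167384734, plus strand), the Snail repressor that is often the first to act in EMT, had 6, 1 and 2 fragments in vehicle and 5, 3 and 2 under UK5099. It had 6, 14 and 9 under butyrate and 9, 6 and 7 under the combination. The groups overlapped in FPM, where butyrate ran from 0.155 to 0.395 and vehicle from 0.0301 to 0.175, and the voom coefficient was 1.72 ± 0.59 from these few fragments. Twist1 (ENSMUSG00000035799, chromosome 12, 34007670 to 34009828, plus strand), a basic helix-loop-helix factor, had 5, 0 and 3 fragments in vehicle, 3, 3 and 1 under UK5099, 1, 6 and 4 under butyrate and 3, 1 and 2 under the combination. Its groups overlapped throughout, and the sample at 0 allows up to 3 fragments of 33251843.

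**Figure D4:**
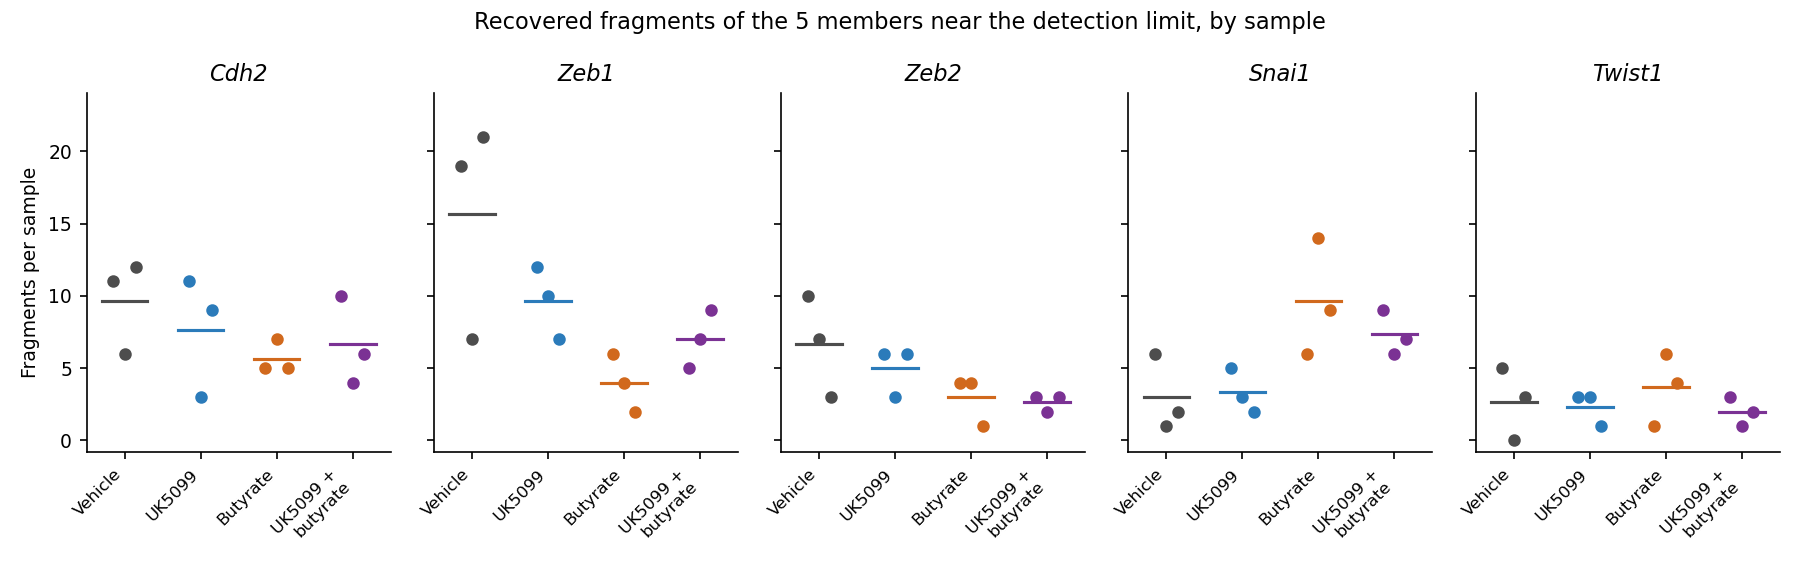
Recovered fragments per sample for Cdh2, Zeb1, Zeb2, Snai1 and Twist1 on a linear axis; points are samples and bars are group means (n = 3). No sample exceeds 21 fragments, and the vehicle samples of Zeb1 alone range from 7 to 21.

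The coefficients of comparisons between the treated groups use no vehicle sample, while their spread was estimated over all 12 samples. They were tested by limma with Benjamini-Hochberg adjustment over all 24674 genes. A gene was called at an adjusted p under 0.01 and a coefficient beyond 1 in either direction. Values of Fn1 and Vim in these contrasts were known beforehand, so 8 members were tested. Each contrast is the difference between effects against vehicle, and those effects were known when the set was chosen. The p-values of the 8 members are therefore a description and no independent test. Of all genes, 0.681% were called higher and 1.18% lower under butyrate than under UK5099, 0.823% and 1.15% under the combination than under UK5099, and 0.551% and 0.357% under the combination than under butyrate. Median-of-ratios scaling moved the share of higher genes among these calls from 36.6% to 50.5%, from 41.7% to 71.0% and from 60.7% to 72.4%.

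Epcam was the only one of the 8 tested members that was called, and the members near the detection limit lay too low for a limma call. It was lower under the combination than under UK5099 by a coefficient of -1.66 ± 0.03 (limma adjusted p = 5.47e-10). It was also lower under butyrate than under UK5099 (-0.82, adjusted p = 2.61e-08) and under the combination than under butyrate (-0.83, adjusted p = 7.56e-08), but these differences were under the size limit. All 3 samples of the lower group lay below all 3 of the other in each contrast.

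Cdh1 passed the p limit and not the size limit in all 3 contrasts. It differed by -0.35 between butyrate and UK5099 (limma adjusted p = 4.24e-06), by -0.61 between the combination and UK5099 (adjusted p = 8.12e-08) and by -0.25 between the combination and butyrate (adjusted p = 8.19e-05). The middle coefficients of genes of at least 1 TPM on average were -0.17, -0.29 and -0.12 in these contrasts. For Cdh1 the coefficients were smaller after median-of-ratios scaling (-0.19, -0.30 and -0.11) and with voom (-0.12, -0.31 and -0.19). Snai2 was lower under butyrate than under UK5099 by -0.33 (limma adjusted p = 0.000758), and the voom coefficient was -0.10 (adjusted p = 0.0882). It was lower under the combination than under UK5099 by -0.24 (limma adjusted p = 0.0042), yet the sign turned to 0.07 after median-of-ratios scaling and to 0.06 with voom. The combination and butyrate did not pass for Snai2 (0.09 ± 0.06, limma adjusted p = 0.287). The order of the 3 treated groups for Snai2 thus rested on the scaling.

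The 5 sparse members gave 0 calls in 15 tests between treated groups by limma and 0 by voom, with 1 and 2 unadjusted p under 0.05. No limma call was possible for them. Their highest treated value was 0.352 TPM (Snai1, butyrate), and values under 1 TPM lie under 1 on log2(TPM + 1). The smallest limma adjusted p was 0.0737, for Snai1 between butyrate and UK5099 with a coefficient of 0.18 ± 0.07. With voom the smallest was 0.0496, for Zeb1 in the same contrast with -1.18 ± 0.48. These tests rest on at most 21 fragments per sample.

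Other genes of the EMT program were taken from 7 lists with 102 genes, of which 100 were in the table and 69 reached 1 TPM in at least 1 group. The lists were chosen with earlier results of these data known. Their calls and p-values are therefore a description and no independent test. Under UK5099, 1 of the 100 was called higher and 5 lower against vehicle, beside 0.928% and 0.912% of all genes. Under butyrate 3 were higher and 18 lower, beside 1.13% and 2.42%, and under the combination 6 were higher and 18 lower, beside 1.79% and 4.63%. The median coefficient over the 69 list genes that reached 1 TPM was -0.09, -0.43 and -0.57, beside -0.12, -0.30 and -0.41 over all genes of at least 1 TPM on average. Over all 100, of which many lie near 0 TPM, it was -0.02, -0.24 and -0.23. The number of lower calls depended on the scaling, and under butyrate it was 5 after median-of-ratios scaling, 6 after quantile normalization and 13 with voom. Of all 24674 genes, these fits called 312, 319 and 915 lower. Higher calls under butyrate numbered 5, 5 and 6 in these fits, beside 434, 411 and 1686 of all genes. Median-of-ratios scaling gave 4 higher and 5 lower under UK5099, beside 263 and 148 of all genes. It gave 8 higher and 10 lower under the combination, beside 725 and 412. Between butyrate and UK5099, 3 list genes were called higher and 9 lower as deposited, beside 168 and 291 of all genes. After median-of-ratios scaling 4 and 5 were called, beside 205 and 201.

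**Figure D5:**
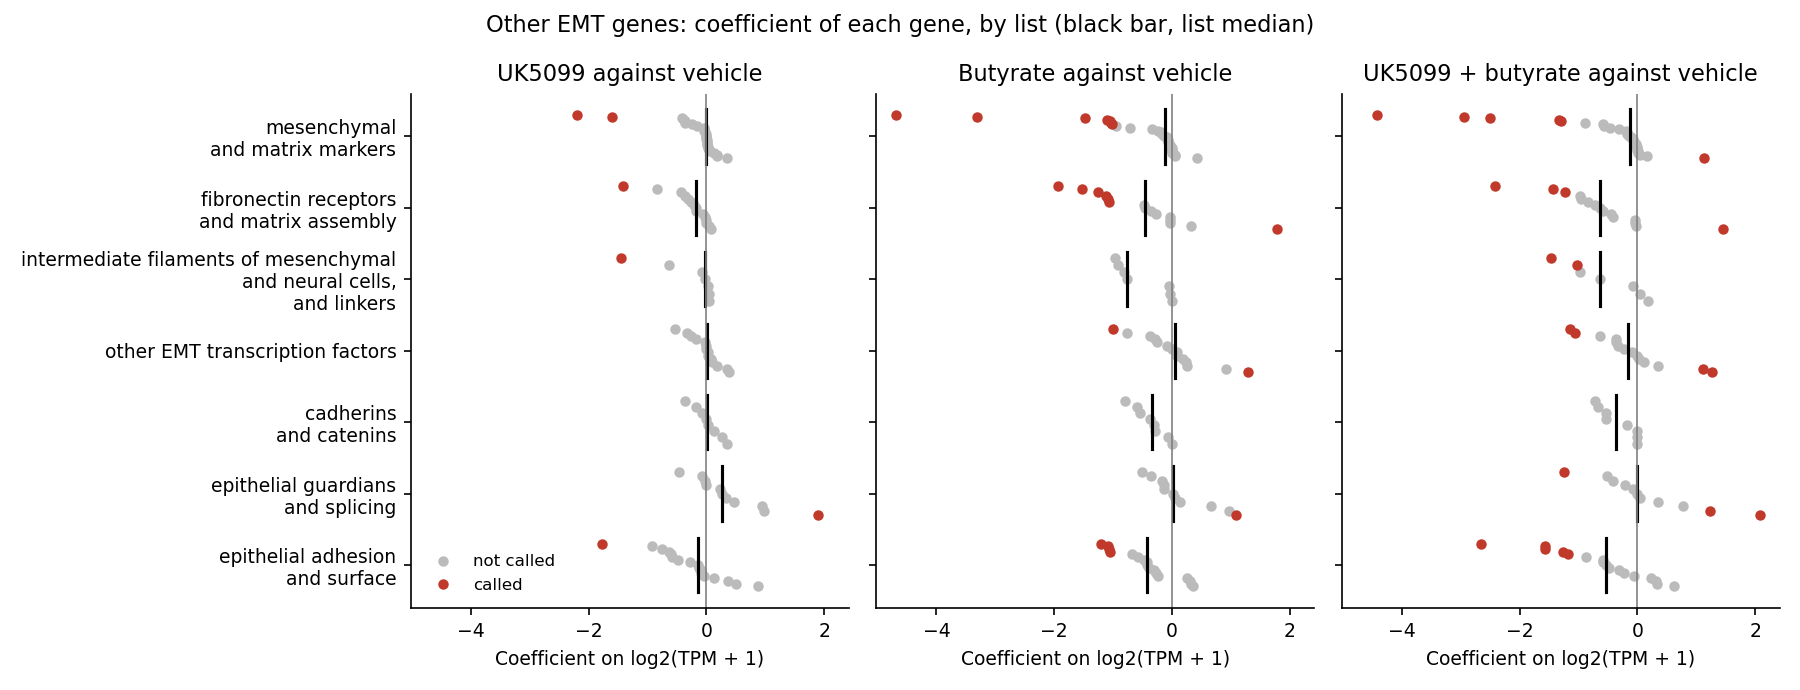
Coefficient on log2(TPM + 1) of each of the 100 listed EMT genes against vehicle, in 7 lists, for UK5099, butyrate and the combination; red points are called genes and black bars are list medians. Most called genes lie below 0, and the lowest is Spp1 in all 3 comparisons.

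Among the 28 mesenchymal and matrix markers, 2 were called lower under UK5099, 7 under butyrate and 5 under the combination, and only S100a4 under the combination was called higher by limma. Of the 7 under butyrate, only Ccn2, Spp1 and Tnc were also called after median-of-ratios or quantile scaling, while Axl, Ccn1, Cd44 and Mmp14 were not. Spp1 (osteopontin, a secreted phosphoprotein bound by integrins) fell from 35.8 ± 1.65 TPM in vehicle to 7.12 ± 1.18 under UK5099 (coefficient -2.19, limma adjusted p = 8.07e-05), 0.440 ± 0.108 under butyrate (-4.68, 1.8e-07) and 0.823 ± 0.823 under the combination (-4.42, 1.7e-07), where its SD was as large as its mean. Ccn2 (connective tissue growth factor) fell from 260 ± 7.70 TPM to 85.1 ± 2.42 under UK5099 (-1.60, limma adjusted p = 1.18e-08) and to 32.9 ± 2.17 under the combination (-2.95, 6.6e-11). These changes kept their sign after median-of-ratios and quantile scaling and with voom.

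Tnc (tenascin C, a matrix glycoprotein of remodeling tissue) was called in both groups given butyrate and not under UK5099 alone. It fell from 21.5 ± 0.301 TPM in vehicle to 1.26 ± 0.0732 under butyrate (coefficient -3.31, limma adjusted p = 1.19e-10) and was 17.9 ± 0.914 under UK5099, so that butyrate also lay below UK5099 (-3.06, adjusted p = 6.48e-10). Axl, a receptor tyrosine kinase associated with mesenchymal cells, was lower under butyrate than under UK5099 (33.1 ± 0.670 against 87.0 ± 3.19 TPM, -1.37, limma adjusted p = 1.43e-08). The fibroblast collagens Col1a1, Col1a2 and Col3a1 had limma coefficients between -0.32 and 0.04 against vehicle and were not called there by limma or by voom. Between butyrate and UK5099 voom called Col3a1 lower (-1.35), and limma on log2(TPM + 1) did not.

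The 15 genes of fibronectin receptors and matrix assembly lie closest to Fn1 in function. Under UK5099 only Tgm2 was called, lower, and under butyrate 6 were called lower and 1 higher. The 6 were the integrin subunits Itga3, Itga5, Itgav, Itgb1 and Itgb6 and the integrin-linked adaptor Ilk, named here after their values were seen. Of these, Itgb6 and Ilk were also called after median-of-ratios scaling. Ilk fell from 105 ± 2.74 to 26.7 ± 1.11 TPM under butyrate (coefficient -1.94, limma adjusted p = 7.39e-10), although 2 other genes overlap its span on the other strand.

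Fbln1 (fibulin 1, a matrix protein that binds fibronectin) moved against them. It rose from 0.843 ± 0.00597 TPM in vehicle to 5.32 ± 0.118 under butyrate (1.78, limma adjusted p = 8.5e-11) and 4.05 ± 0.184 under the combination (1.45, 9.58e-11). Tgm2 (transglutaminase 2, which cross-links matrix proteins and binds fibronectin) was 2.40 ± 0.167 TPM under UK5099 and 10.4 ± 0.0854 under butyrate (1.74, limma adjusted p = 9.73e-09 between them). Called genes of this list thus went in both directions.

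Of the 7 other intermediate filament and linker genes, Nes (nestin) was called lower under UK5099, from 47.3 to 16.7 TPM, and 0 were called under butyrate by limma or by voom, while 4 had an unadjusted limma p under 0.05. Synm and Lmna were called lower under the combination, of which Lmna was lost after median-of-ratios scaling (-0.57) and with voom (-0.66). Of the 14 other EMT transcription factors 0 were called under UK5099 by limma and 1 by voom, and 10 had an unadjusted limma p under 0.05. Id1 rose and Sox9 fell under butyrate, and Id1 and Id3 rose and Tcf3 and Sox9 fell under the combination. After median-of-ratios scaling, quantile normalization or voom, Sox9 was called in neither comparison (-0.69 and -0.60 after median-of-ratios scaling), nor was Tcf3 under the combination (-0.72). Id1 (an inhibitor of basic helix-loop-helix factors) rose from 21.6 ± 0.815 TPM in vehicle to 54.4 ± 3.96 under butyrate (1.29, limma adjusted p = 9.39e-08) and 53.6 ± 3.47 under the combination (1.27, 6.22e-08). Snai3, a Snail relative, had 49 fragments over the 3 vehicle samples, 116 under UK5099, 94 under butyrate and 151 under the combination. Voom called it higher under UK5099 (1.18) and under the combination (1.43), and limma on log2(TPM + 1) did not (0.38 and 0.35).

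The epithelial lists divided as well. Of the 8 cadherins and catenins 0 were called against vehicle by limma or by voom, while 6 under UK5099, 7 under butyrate and 5 under the combination had an unadjusted limma p under 0.05. The classical cadherin Cdh3 (P-cadherin) had means of 23.3, 23.9, 15.7 and 15.7 TPM in vehicle, UK5099, butyrate and the combination. Of the 11 epithelial guardian and splicing genes, Ovol1 was called higher in all 3 comparisons. Ovol1, a zinc-finger repressor that keeps epithelial cells epithelial, rose from 8.63 ± 0.624 TPM in vehicle to 35.0 ± 0.429 under UK5099 (1.90, limma adjusted p = 1.61e-08), 19.3 ± 1.22 under butyrate (1.08, 1.71e-07) and 39.7 ± 2.09 under the combination (2.08, 1.41e-09). Klf4 was also called higher and Ehf lower under the combination, and of these only Klf4 was called after median-of-ratios scaling.

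The limma calls among the 17 epithelial adhesion and surface genes on the deposited scale were all lower, as Epcam was. Other fits also made higher calls: voom for Muc1 under butyrate (1.07) and under the combination (1.08), and voom (1.02) and median-of-ratios scaling (1.09) for Dsp under the combination. Cldn3, a tight junction claudin, fell from 661 ± 22.4 TPM in vehicle to 193 ± 12.5 under UK5099 (coefficient -1.78, limma adjusted p = 9.84e-09) and 104 ± 4.71 under the combination (-2.65, 1.54e-10). Cldn4, Cldn7 and St14 were also called lower under butyrate and under the combination, beside Cldn3, and Marveld2 under the combination. Under median-of-ratios scaling none of the 4 was called under butyrate, and Cldn7 and Marveld2 were not called under the combination. The luminal markers, which summed to 2590 to 2650 FPM in vehicle, 1160 to 1240 under UK5099, 1140 to 1160 under butyrate and 598 to 611 under the combination, were lower in the same groups as Epcam, and their part in its level was not tested.

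The genes whose profiles over the 12 samples were most like that of Fn1, among 13345 genes of at least 1 TPM on average, were Acot7 (Pearson r = 0.9984 on log2(TPM + 1)), Rhoc (0.9981) and Sox11 (0.9976). Those most like Vim were Pea15a (0.9981), Hs6st1 (0.9977) and Ptprn (0.997). Such likeness was shared by many genes: 25 had an r over 0.99 with Fn1 and 63 with Vim. The 12 points fall into 4 groups, so these values describe the order and spacing of the groups. Rhoc, a small GTPase, had means of 101, 32.6, 28.8 and 25.4 TPM in vehicle, UK5099, butyrate and the combination, and Pea15a had 89.6, 43.6, 28.5 and 25.4.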

How the data were processed

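RNA from 12 cultures (vehicle, UK5099, butyrate and UK5099 plus butyrate, 3 each) was sequenced by the authors as paired-end, dUTP-marked libraries. The authors deposited 1 table of TPM values for 24674 genes. The submitters' processing notes name STAR 2.7.9a, Partek and GRCm39, whereas the methods name another build, and only 2.18% of 23913 matched nuclear genes had the GRCm38 reference coordinates; positions are therefore printed as the table lists them. The listed length equaled the genomic span for 100.0% of genes. The TPM of each sample summed to 1000000. Fragments were recovered from the step between low values (whole within 0.02 fragments for 59.0 to 61.3% of values above 0, and for all member values under 1000 fragments); the values of Cdh1 and Epcam were too high for this check, and fragments are estimates there. Depth was 33251843 to 43498951 fragments per sample; a floor of 3 fragments covers counting error only.

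Values were analyzed as log2(TPM + 1) with limma 3.58.1 in R 4.3.3, in a model with UK5099, butyrate and their interaction over all 12 samples, adjusted by Benjamini-Hochberg over all genes, with limits of 0.01 on the adjusted p and 1 on the absolute coefficient. The script was tested on simulated data. The members and gene lists were chosen with earlier results of these data known. Genes were named by rule: all members, the 3 highest and 3 lowest called coefficients per comparison from the lists without overlap between groups, and the 3 profiles most like Fn1 and Vim, beside cell type markers; other list genes were named after their values were seen. Alternatives were pseudocounts of 0.1 and 0.01, a minimum mean of 1 TPM, median-of-ratios scaling, quantile normalization, fewer groups in the fit, a replicate block, voom on recovered fragments, exonic length (23913 genes) and leaving out each sample. Same-numbered samples deviated with correlations of -0.107 to 0.0294, so no pairing by number was seen. Fragment counts of replicate 1 of UK5099 and of the combination differed more from their group mates (chi-square per degree of freedom 6.60 to 7.25). Other pairs within groups had 1.97 to 2.72. Fn1 and 7 of the 10 genes named from the lists (Spp1, Cldn3, Ccn2, Ovol1, Tnc, Ilk and Tgm2) share their span with another listed gene, and the strand setting of the counting was not given in the sources used here.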

Additional observations from a re-analysis of the deposited data

Results flagged for a closer look

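For 5 genes the response to UK5099 was not the same in the presence of butyrate as in its absence, by the interaction term of the limma model. The term was looked at for the members and for the list genes named by rule, which had been picked for large coefficients. By the same limits, limma called 250 of all 24674 genes for interaction and voom called 663. The interaction coefficient on log2(TPM + 1) was 3.87 for Fn1 (voom 3.13), 1.51 for Vim (voom 1.07) and -1.03 for Snai2 (voom -1.05), given as a description because these genes were chosen from earlier results. It was 2.44 for Spp1 (limma adjusted p = 0.00109, voom 2.77) and 1.06 for Tnc (limma adjusted p = 9.14e-06, voom 1.49). For Fn1, Vim and Spp1 the sum of the single effects would place the combination at -3.55, -1.31 and -1.67 on the log2(TPM + 1) scale, below the lowest value of 0 that the scale allows, so a positive interaction was bound to appear for them there.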

How the results depend on the processing

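The number of called list genes against vehicle with UK5099 was 6, and it was 10 with a pseudocount of 0.01 and 11 with voom. With butyrate it was 21, and it was 10 after median-of-ratios scaling and 11 after quantile normalization. Between butyrate and UK5099 it was 12, and it was 19 with a pseudocount of 0.01 and 20 with voom. Of all 24674 genes, the same fits called 454, 1412 and 1468 with UK5099. They called 874, 746 and 730 with butyrate and 459, 1673 and 1840 between the 2 drugs. The other 30 alternative counts, including all for the combination (24 as deposited), stayed within 1.5 times. Leaving out each sample gave 6 to 7 calls with UK5099, 20 to 21 with butyrate, 24 with the combination and 11 to 12 between butyrate and UK5099. A replicate block gave the same counts (6, 21, 24 and 12); same-numbered samples did not deviate together. Among tested members, Snai2 reversed between the combination and UK5099 (0.07 after median-of-ratios scaling, 0.06 with voom) and Twist1 between butyrate and UK5099 without butyrate replicate 2 (-0.02, range -0.02 to 0.15 over single samples left out). The sparse Cdh2 reversed around 0 between the combination and butyrate (0.00039 after median-of-ratios scaling, 0.00088 with voom, and -0.00099 to 0.00065 leaving out each sample). The causes were not tested. The 5 sparse members fell out under the minimum mean of 1 TPM, and the interaction could not be fitted with fewer groups.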
